A study of Mus musculus with 6 samples.

Results

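The transcription factor p53, encoded by Trp53, and 9 of its well-known mouse target genes were followed in sorted kidney epithelial cells with and without an intact Terf1 gene. The 10 genes were chosen by name, as p53 and targets that act in cell cycle arrest (Cdkn1a, Ccng1), cell death (Bax, Apaf1, Perp, Trp53inp1), control of p53 itself (Mdm2), RNA control (Zmat3) and nucleotide supply (Rrm2b). All 10 were found among the 16095 genes of the table, each with 1 row and a value in all 6 libraries. Terf1 codes for TRF1, a protein of the shelterin complex that covers and protects chromosome ends.

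The control group comprised 3 libraries from mice of genotype Trf1+/+ KFP+/t Cre+/t, and the Terf1_flox group 3 libraries from Trf1lox/lox KFP+/t Cre+/t mice. Both groups thus carried KFP and the Cre, a tamoxifen-inducible CreERT2 under the promoter of Ksp-cadherin (gene Cdh16), which is active in epithelium of the kidney tubule. Both groups also received tamoxifen into the abdomen 3 times a week for 8 weeks, starting in male and female mice 6 to 8 weeks old. EpCAM-stained cells were sorted from digested kidneys, using the endogenous KFP signal as well. The labels do not say how many mice stand behind a library. A sample size of 3 therefore means 3 libraries, and a p-value measures the spread between these libraries, which may be technical.

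In the textbook scheme, damaged DNA and uncapped telomeres activate kinases that stabilise the p53 protein, which is otherwise marked for destruction by MDM2. p53 then binds DNA next to its targets and raises their transcription, so that cells pause, repair or die. Its activity is set mainly at the level of the protein, which RNA data do not show, and Mdm2 is itself a target, which closes a feedback loop.

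The binding sequence of p53 is shown because it is what the protein recognises next to its targets. The targets were chosen as genes that p53 is known to bind at, so its presence near them follows from that choice and is no result. p53 binds as a tetramer to a pair of decamers, and the consensus decamer was searched for in the 250 bases before each RefSeq start site (build GRCm38.p6). The decamer consensus is its own reverse complement, so a search of 1 strand covers both. RefSeq windows were at hand for 6 members (Trp53, Mdm2, Cdkn1a, Ccng1, Bax and Apaf1), with 7 start sites among them, 2 of these for Cdkn1a. The remaining members were Rrm2b, Zmat3, Perp and Trp53inp1. In the sequences below, written 5′ to 3′ along the gene, capitals mark a decamer match.
Cdkn1a (chr17:29090866-29090977, + strand, before the upstream start site): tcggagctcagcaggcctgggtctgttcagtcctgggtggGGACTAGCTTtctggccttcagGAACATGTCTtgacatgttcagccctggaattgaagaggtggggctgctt
Mdm2 (chr10:117710895-117710984, - strand): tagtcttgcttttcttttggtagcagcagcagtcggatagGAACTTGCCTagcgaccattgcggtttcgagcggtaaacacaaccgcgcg
Trp53 (chr11:69580244-69580333, + strand): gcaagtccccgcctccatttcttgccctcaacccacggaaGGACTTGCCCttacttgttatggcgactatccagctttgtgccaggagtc
Ccng1 (chr11:40755422-40755511, - strand): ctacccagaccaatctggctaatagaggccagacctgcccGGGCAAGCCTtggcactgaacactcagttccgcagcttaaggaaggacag
Bax (chr7:45467050-45467139, - strand): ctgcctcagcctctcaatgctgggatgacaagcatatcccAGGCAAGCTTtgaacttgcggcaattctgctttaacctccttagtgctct

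A decamer match lay in 5 of the 7 windows of members. These 5 include the window of Trp53 itself, and the other members were chosen as p53 targets. For scale, 7.13% of all 32851 windows of this length held a match. The Cdkn1a window held 2 matches separated by 12 bases. Only exact matches were marked. The decamer right after the second match differs from the consensus only at its first base, and so stays in lower case. In the Ccng1 window the decamer right before the match differs only at its base 5, and also stays in lower case. Which decamers p53 pairs in these windows was not tested. A pair of matches within 13 bases of each other occurred in 0.0639% of all windows. The window of Apaf1 and the one before the downstream start of Cdkn1a held no match, which says only that these letters are not in those bases. The RNA of genes with a match lay on both sides of 0 in the comparison below. A match is a description of the sequence and not evidence of binding in these cells.

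The libraries held 13582140 to 17680986 reads over the genes of the table. Terf1, the targeted gene, was listed at 529.6, 486.1 and 663.9 normalized counts in control libraries 1 to 3, and at 62.0, 24.6 and 25.3 in Terf1_flox libraries 1 to 3. A normalized count is a read number divided by a scaling factor of the library. The most abundant markers were those of the sorted epithelium. The 10 markers of thick ascending limb, distal and collecting duct epithelium summed to 254817 to 298191 normalized counts in control libraries. In Terf1_flox libraries they summed to 188416 to 243047, without overlap. They did not move together, with 3 log2 fold changes above 0 and 7 below. Umod, with the highest control mean of the 10, averaged 119814 in control and 63592 in Terf1_flox libraries. Slc12a1 averaged 36584 and 50653, and was higher in every Terf1_flox library. Proximal tubule markers summed to 690 to 3844, the highest in Terf1_flox library 3. Of 6 endothelial and 5 podocyte markers none had a row in the table used here, and 1 of 6 stromal, 2 of 8 macrophage and 2 of 7 lymphocyte markers did, with sums of at most 110.3 per library. The 4 erythroid markers with a row, of 6, summed to 151 to 746. Epcam, the gene of the sort marker, was at 4416 to 5087 in control and at 1434 to 2977 in Terf1_flox libraries, and Cdh16, the promoter gene of the Cre, at 4540 to 7152 and at 4063 to 4767. Mitochondrially encoded genes took 10.33% to 13.04% of reads in control and 16.2% to 20.6% in Terf1_flox libraries. The part of these differences in the values below was not tested. In the mixture of cells of each library, fewer cells of a type and less RNA per cell cannot be told apart. The Y-linked gene Ddx3y was at 347, 123 and 611 in control and at 915, 951 and 3.04 in Terf1_flox libraries. Xist ran from 1380 to 2872, and the groups overlapped for both genes. Terf1_flox library 3 thus held almost no Ddx3y RNA, while the other libraries held RNA of both genes. The part of this difference in the values below was not tested.

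No member passed the test of Terf1_flox against control over all genes. The test was limma on log2(normalized count + 1), with Benjamini-Hochberg adjustment over the 14822 genes whose mean reached 10, and it called 0% of them at an adjusted p below 0.05. The edgeR quasi-likelihood test on the recovered reads also called 0 genes. Even the targeted gene Terf1, 15.0-fold lower by group means and without overlap, stayed above the threshold in limma (adjusted p = 0.0814) and in edgeR (adjusted p = 0.0963). DESeq2 called Terf1 (adjusted p = 5.42e-08). A member left uncalled by limma or edgeR is therefore not shown to be unchanged. With DESeq2, 2 of the 10 members were called, where it called 5.21% of all genes tested. Genes without a DESeq2 adjusted p count as not called in this share and in the DESeq2 shares that follow. All 10 members had one, so these shares are somewhat low for this comparison. Apaf1 was the 1 higher (2.21% of all genes) and Bax the 1 lower (3% of all genes). An unadjusted limma p below 0.05 was reached by 4 members, against 14.1% of all genes. Apaf1 and Rrm2b were the 2 higher (5.7% of all genes) and Bax and Cdkn1a the 2 lower (8.43% of all genes). The groups did not overlap for 6 members, against 21.1% of all genes. In 3 of them, Apaf1, Rrm2b and Ccng1, each Terf1_flox library was higher (10.3% of all genes), and in 3, Trp53, Cdkn1a and Bax, lower (10.8% of all genes). The list was assembled with earlier results of these libraries known, so these shares are not independent evidence about p53.

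**Figure D1:**
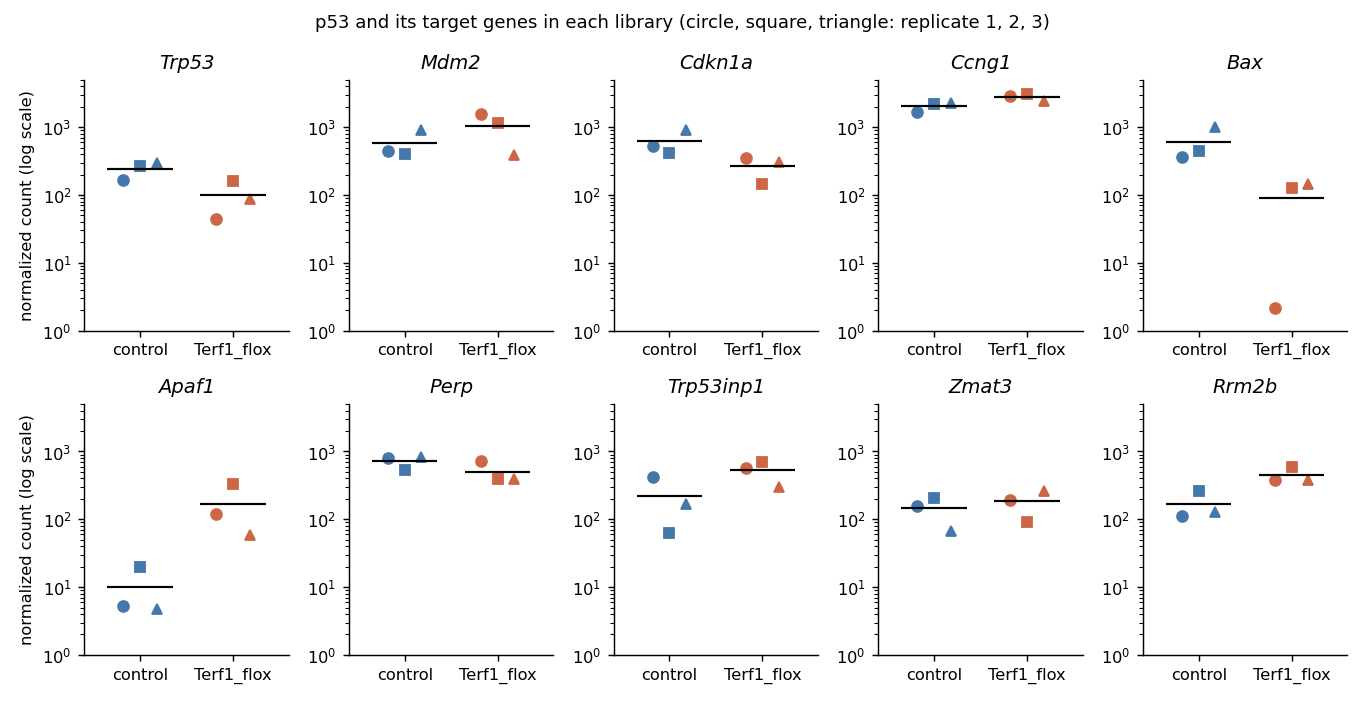
Normalized count (log axis) of p53 and its 9 target genes in each library; blue, control; orange, Terf1_flox; circle, square and triangle, replicates 1, 2 and 3; bar, mean of the group. Apaf1 and Bax stand farthest apart between the groups, in opposite directions, while Zmat3, Perp, Mdm2 and Trp53inp1 overlap.

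The p53 gene itself was lower in every Terf1_flox library, while its main inhibitor overlapped between the groups. Trp53 was at 166, 267 and 295 normalized counts in control libraries and at 44.6, 162 and 88.0 in Terf1_flox libraries. The highest Terf1_flox value lay just under the lowest control value. Trp53 averaged 243 ± 67.8 in control and 98.3 ± 59.4 in Terf1_flox (SD, n = 3 each), 2.47-fold lower. On the log2 scale the difference was −1.44 ± 0.66 (± standard error, here and below; limma adjusted p = 0.371). Mdm2, the ubiquitin ligase that marks p53 for degradation, was at 442, 399 and 897 in control and at 1586, 1158 and 393 in Terf1_flox libraries. Terf1_flox libraries 1 and 2 were above every control library, and Terf1_flox library 3 was below every one. The log2 fold change of Mdm2 was 0.73 ± 0.57 (limma adjusted p = 0.611), with 1.32 without Terf1_flox replicate 3 and 0.32 without Terf1_flox replicate 1.

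Cdkn1a and Ccng1, the targets linked to the cell cycle, also separated. Cdkn1a encodes p21, the inhibitor of cyclin-dependent kinases through which p53 halts division. Cdkn1a was at 530, 414 and 904 in control and at 348, 145 and 311 in Terf1_flox libraries, so that each Terf1_flox library was below each control library. Its difference was −1.22 ± 0.51 on the log2 scale (limma adjusted p = 0.329), and −0.57 after a correction for transcript GC content and length. Ccng1 encodes cyclin G1, a target that takes part in control of p53 by way of MDM2. It was at 1663, 2160 and 2250 in control and at 2889, 3113 and 2399 in Terf1_flox libraries. All Terf1_flox libraries were above all control libraries, by a small margin for library 3. The log2 fold change of Ccng1 was 0.47 ± 0.24 (limma adjusted p = 0.416), and 0.21 after the same correction for GC content and length. Its pooled SD within groups of 0.216 on the log2 scale was the smallest of the 10 members.

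Bax and Apaf1 had the largest differences among the members, and both act in the mitochondrial route of cell death. BAX opens the outer membrane of mitochondria, and APAF1 forms the apoptosome once cytochrome c has left them. Bax was at 367, 450 and 1014 in control and at 2.18, 128 and 143 in Terf1_flox libraries. In the GENCODE annotation 192 bases of Bax exons are shared with Gm45808 on the same strand, and 273 bases of Cdkn1a exons with AC167363.2 on the opposite strand; neither was analysed here. Terf1_flox library 1 held 2 Bax reads, and the other two Terf1_flox libraries held 125 and 141. Bax averaged 610 ± 352 and 91.1 ± 77.3 (SD, n = 3 each), 6.70-fold lower. Limma put the log2 fold change at −3.83 ± 1.37 (adjusted p = 0.267) and DESeq2 at −2.72 (adjusted p = 0.048). Without Terf1_flox replicate 1 the log2 fold change was −2.02.

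Apaf1 went the other way. It was at 5.28, 20.0 and 4.74 in control, which is 6, 21 and 6 reads, and at 120, 330 and 58.7 in Terf1_flox libraries, which is 110, 322 and 58 reads. The lowest Terf1_flox library was thus above the highest control library. The means were 10.0 ± 8.67 and 170 ± 143 (SD, n = 3 each), 16.9-fold higher. Limma put the log2 fold change at 3.87 ± 1.07 (adjusted p = 0.188) and DESeq2 at 4.10 (adjusted p = 0.00593). All 10 members reached the minimum mean of 10 over the 6 libraries. Without Terf1_flox replicate 2, the library with the most Apaf1, the log2 fold change was 3.22.

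Perp and Trp53inp1, further targets tied to cell death, overlapped between the groups. Perp encodes a membrane protein of desmosomes that p53 induces during apoptosis. Perp was at 790, 537 and 830 in control and at 728, 388 and 397 in Terf1_flox libraries, a difference of −0.55 ± 0.40 on the log2 scale (limma adjusted p = 0.579). Trp53inp1 encodes a stress protein that promotes the phosphorylation of p53 and autophagy. It was at 425, 62.9 and 169 in control and at 565, 711 and 303 in Terf1_flox libraries, a difference of 1.57 ± 0.72 on the log2 scale (limma adjusted p = 0.37). Control library 1 was above Terf1_flox library 3. The Trp53inp1 value was 2.25 without control replicate 1 and 0.88 without control replicate 2.

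Rrm2b encodes the p53-inducible small subunit of ribonucleotide reductase, which supplies deoxynucleotides for DNA repair outside S phase. It was at 111, 265 and 129 in control and at 379, 584 and 383 in Terf1_flox libraries, with no overlap. The means of 168 ± 84.1 and 448 ± 117 (SD, n = 3 each) were 2.66-fold apart. On the log2 scale Rrm2b differed by 1.49 ± 0.51 (adjusted p = 0.255 in limma and 0.122 in DESeq2). In the same annotation 734 bases of Rrm2b exons are shared with Gm49085 on the opposite strand, and no source used here says whether reads were counted by strand. Gm49085 was at 19.4, 0.953 and 103 in control and at 153, 207 and 172 in Terf1_flox libraries. Its part in the Rrm2b values was not tested.

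Zmat3 encodes an RNA-binding zinc finger protein that p53 induces and that acts on splicing and RNA stability. It was at 157, 209 and 67.1 in control and at 196, 92.4 and 264 in Terf1_flox libraries. The groups overlapped throughout, and the difference of 0.37 ± 0.69 on the log2 scale (limma adjusted p = 0.848) was −0.10 without control replicate 3.

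**Figure D2:**
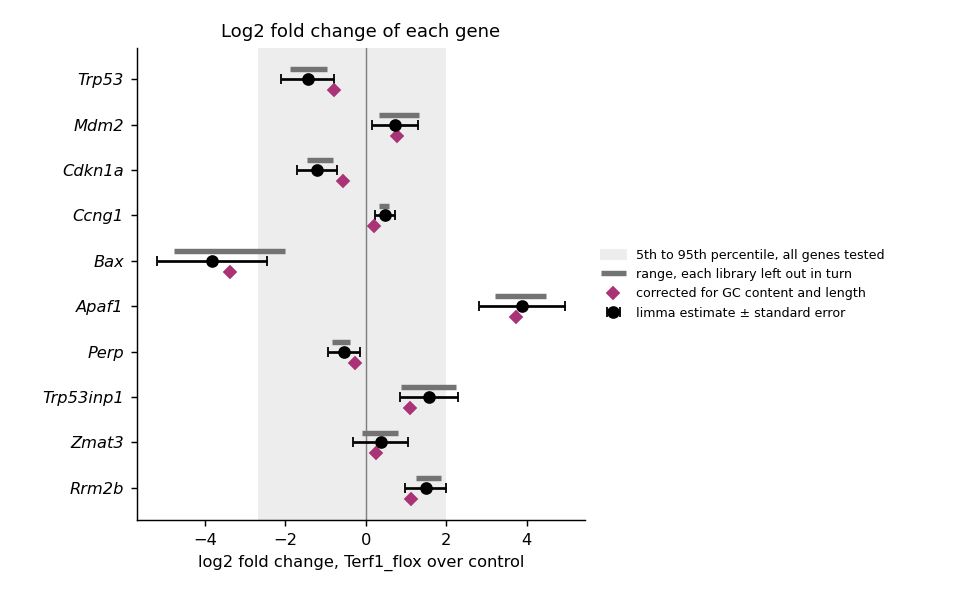
Log2 fold change of each gene, Terf1_flox over control: black point and whiskers, limma estimate ± standard error; grey bar, range when each library in turn is left out; diamond, value corrected for transcript GC content and length; shaded band, 5th to 95th percentile of all genes tested (−2.66 to 1.96). Bax at −3.83 and Apaf1 at 3.87 lie outside the band, the other 8 genes lie inside it, and only the bar of Zmat3 crosses 0.

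The values of the members pointed in both directions. The log2 fold change was above 0 for 6 and below 0 for 4. Their median was 0.42, against −0.08 over all genes tested, of which 47.2% were above 0. After the GC content and length correction the medians were 0.23 for the members and 0.08 over all genes. Their median pooled SD within groups was 0.766 on the log2 scale, against 0.683 for the 8408 genes tested with a mean level in the same range. Within the control group, library 3 had the highest value of 6 members (Trp53, Cdkn1a, Mdm2, Ccng1, Bax and Perp). Within the Terf1_flox group, library 2 had the highest value of 5 (Trp53, Ccng1, Apaf1, Rrm2b and Trp53inp1) and library 3 the lowest of 4 (Mdm2, Ccng1, Apaf1 and Trp53inp1).

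Levels of different genes can be compared once divided by transcript length. Per kilobase of the longest coding transcript, mean normalized counts in control ran from 576 for Ccng1 and 555 for Bax, through 368 for Perp, 296 for Cdkn1a, 184 for Mdm2 and 130 for Trp53, to 40.5 for Trp53inp1, 36.9 for Rrm2b, 18.5 for Zmat3 and 1.52 for Apaf1. In Terf1_flox libraries Ccng1 was still highest per kilobase, at 797, and Mdm2 came second at 332. Bax came seventh there, at 82.8 per kilobase. Apaf1 at 25.8 and Zmat3 at 23.6 per kilobase were the lowest pair in Terf1_flox, and their values overlapped between libraries. Which transcript the cells use was not measured, so these levels carry an unknown error.

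The order of the log2 fold changes went largely, but not fully, with the base composition of the transcripts. The 3 members with the highest GC content, Bax (59.2%), Cdkn1a (54.5%) and Trp53 (54.0%), had the 3 lowest log2 fold changes. Trp53inp1 (38.8%), Ccng1 (40.8%) and Rrm2b (43.3%), with the lowest GC content, were all above 0. Apaf1, with the highest log2 fold change (3.87), departed from this order, with a GC content of 46.0%, beside 46.2% for Mdm2 (0.73). Across the 10 members Spearman's rho between GC content and log2 fold change was −0.87 (a description over genes, which share libraries and depth). It was not computed over all genes, so the trend is not shown to be particular to the members. After correction of all libraries for GC content and length, the values moved to −0.79 for Trp53, −0.57 for Cdkn1a, −3.37 for Bax, 3.74 for Apaf1, 1.13 for Rrm2b and 1.09 for Trp53inp1, and rho was −0.79. All 10 kept their sign under this correction, and also with equal library totals, equal upper quartiles and quantile normalization.

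**Figure D3:**
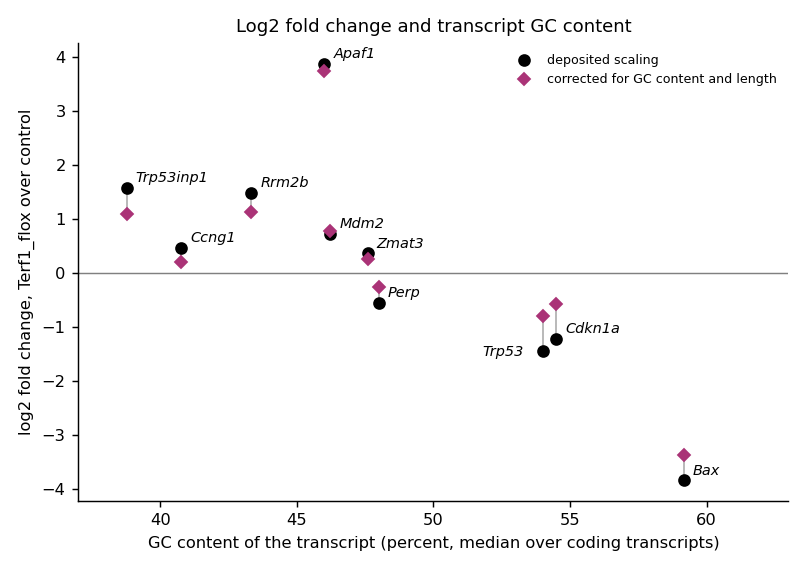
Log2 fold change of each gene (vertical axis) against the GC content of its transcripts in percent (horizontal axis); black points, deposited scaling; diamonds, after correction for GC content and length. Genes above 50% GC, Trp53, Cdkn1a and Bax, lie below 0, and correction moves Trp53 from −1.44 to −0.79 and Cdkn1a from −1.22 to −0.57.

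By pattern over the 6 libraries, the genes most like Trp53 were Fn3krp, Acaa2 and Xrcc6, with Pearson's r of log2 values of 0.998, 0.997 and 0.992. They were the highest of the 10761 other genes whose mean reached 50, and such a search over 6 points returns high values by selection alone. Xrcc6 encodes the Ku70 subunit of the end-joining repair complex, Acaa2 a mitochondrial thiolase and Fn3krp a kinase that removes sugar adducts from proteins.

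Further p53 targets, from a wider list, were counted in the same way. Of 30 listed genes 26 had a row and 24 were tested; their log2 fold changes, 7 above 0 and 17 below, had a median of −0.20, against −0.08 over all genes. With the correction for GC content and length it was above 0, at 0.16, against 0.08 over all genes. Limma called 0 of them. At an unadjusted p below 0.05, 1 was higher (5.7% of all genes) and 2 lower (8.43% of all genes), shares near those over all genes. Rps27l, a p53-induced paralog of the ribosomal protein gene Rps27 whose reads a similar copy could share, was at 6952, 6857 and 5394 in control and at 16016, 13977 and 14583 in Terf1_flox libraries (log2 fold change 1.22 ± 0.17, adjusted p = 0.0805 in limma and 3.38e-06 in DESeq2). Sfn encodes 14-3-3 sigma, which holds back entry into mitosis, and was lower in every Terf1_flox library, at 354, 309 and 441 against 96.8, 55.4 and 50.6 (log2 fold change −2.47 ± 0.56, limma adjusted p = 0.13, DESeq2 adjusted p = 0.00348). The next by p were Ei24, Xpc and Ppm1d, with log2 fold changes of −1.21, −1.5 and 0.51. Ei24 did not overlap between groups (lower), nor did Ppm1d (higher), the phosphatase that switches off p53 signalling.

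Among 19 tested regulators and relatives of p53, 11 had values above 0 and 8 below; the median was 0.37 (0.07 after the GC content and length correction, against 0.08 over all genes) and limma called 0. Ppp1r13l encodes iASPP, an inhibitor of p53, and was at 0, 1.91 and 7.89 in control and at 74.0, 15.4 and 24.3 in Terf1_flox libraries. The groups did not overlap, but the control libraries held few reads, and the fitted difference of 3.41 ± 1.37 on the log2 scale (limma adjusted p = 0.314) depends on the pseudocount. With a control mean of 3.27, Ppp1r13l passed the minimum mean of 10 only through the Terf1_flox group. Its direction therefore follows from the filter. Sirt1, a deacetylase of p53, was at 265, 81.0 and 200 against 309, 301 and 550 (1.19 ± 0.58, limma adjusted p = 0.403). Mdm4, the partner of MDM2 that masks the activation domain of p53, was at 2175, 954 and 1475 against 675, 1247 and 988, with overlap (−0.63 ± 0.39). Rpl11, a ribosomal protein that can bind MDM2 and whose gene has processed copies that could share reads, had a log2 fold change of 0.44 ± 0.22 and Kat5, an acetyltransferase of p53, one of −3.49 ± 1.98, both with overlap.

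Cyclin D1 stood out among the proteins that p21 acts on. Ccnd1 was at 2066, 1985 and 2670 in control and at 526, 816 and 664 in Terf1_flox libraries, −1.75 ± 0.29 on the log2 scale (adjusted p = 0.0814 in limma and 1.04e-05 in DESeq2). Of the 12 tested partners of p21, 5 were above 0 and 7 below, and limma called 0. The median was −0.23 (−0.18 after the GC content and length correction, against 0.08 over all genes). Cdk2 (−1.67 ± 0.80) and Ccnd3 (−0.78 ± 0.46) had values below 0, Ccne2 (3.40 ± 1.77) and Ccna2 (3.18 ± 1.80) above 0, all with overlap. Leaving out 1 library moved Ccne2 between 2.27 (without control replicate 3) and 4.89 (without control replicate 1), and Ccna2 between 1.86 (without Terf1_flox replicate 1) and 5.05 (without Terf1_flox replicate 2). Ccna2 was at 166 and 57.7 in Terf1_flox libraries 1 and 3 and at 1.03 in library 2, against 0.880 to 6.31 in control.

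Genes of dividing cells were scarce in both groups. Of 14 such genes 9 had a row and 6 reached a mean of 10, with 2 above 0 and 4 below, a median of −0.24 (0.08 after the GC content and length correction) and overlap for all 6. Mki67, the usual marker of cycling cells, was under that mean, between 2.05 and 16.3 normalized counts in the 6 libraries. The filter takes the mean over both groups. Mcm2 (control mean 6.07) passed it only through the Terf1_flox group. Cdk1 (Terf1_flox mean 1.39) and Mcm5 (Terf1_flox mean 9.52) passed only through control. The direction of such genes follows from the filter, so the counts above and below 0 are no result. The 5 with the smallest p were Mcm2 (2.07), Cdk1 (−2.13), Ccnb1 (1.63), Mcm5 (−0.88) and Tk1 (−0.25, or 0.42 after the GC content and length correction), none called by limma. Leaving out 1 library moved Mcm2 between 0.85 (without Terf1_flox replicate 1) and 3.39 (without Terf1_flox replicate 2). It moved Cdk1 between −3.26 (without control replicate 1) and −0.56 (without control replicate 3), and Ccnb1 between 0.45 (without control replicate 1) and 3.24 (without Terf1_flox replicate 1).

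In the mitochondrial death pathway around Bax and Apaf1, values were above 0 for 6 of 14 tested partners and below for 8; the median was −0.06 (0.14 after the GC content and length correction) and limma called 0. Cycs, cytochrome c, which binds APAF1, was at 33873, 21604 and 31529 in control and at 49953, 53533 and 40215 in Terf1_flox libraries (0.74 ± 0.20, limma adjusted p = 0.175, DESeq2 adjusted p = 0.0353). Bad, a BH3-only protein, was at 794, 683 and 638 against 158, 299 and 499, with no overlap (−1.29 ± 0.48, limma adjusted p = 0.277). Bid was at 3.26 and 0 in Terf1_flox libraries 1 and 2 but at 135 in library 3, inside the control range of 89.6 to 137. Xiap, an inhibitor of caspases, had a log2 fold change of 0.47 ± 0.29 that became −0.02 after the GC content and length correction, and Diablo, which counters XIAP, one of −1.02 ± 0.72.

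The 6 tested partners of Rrm2b in nucleotide supply had a median of −0.74, against −0.08 over all genes, and limma called 0. After the GC content and length correction the medians were −0.83 and 0.08. Values of all 6 were below 0 with the deposited scaling and all libraries, where 47.2% of all genes were above 0. Tk2, the mitochondrial thymidine kinase and named after its values were seen, was then at −0.23, but at 0.30 after the GC content and length correction, 0.22 without control replicate 3, 0.21 without Terf1_flox replicate 2 and 0.02 without Terf1_flox replicate 3. Rrm2, the S-phase paralog of Rrm2b, was at 357, 22.9 and 455 in control and at 21.8, 36.9 and 50.6 in Terf1_flox libraries (−2.15 ± 1.17, limma adjusted p = 0.451, DESeq2 adjusted p = 0.0468). Control library 2 lay within the Terf1_flox range. Samhd1, which degrades deoxynucleotides, was at 202, 345 and 391 against 56.6, 28.7 and 181, with no overlap (−2.16 ± 0.77, limma adjusted p = 0.266). Dguok (−0.64), Rrm1 (−0.56) and Dck (−0.85) overlapped between the groups, and without control replicate 3 Rrm1 was at 0.43 and Dck at 0.87 (Dck also at 0.34 without Terf1_flox replicate 1).

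**Figure D4:**
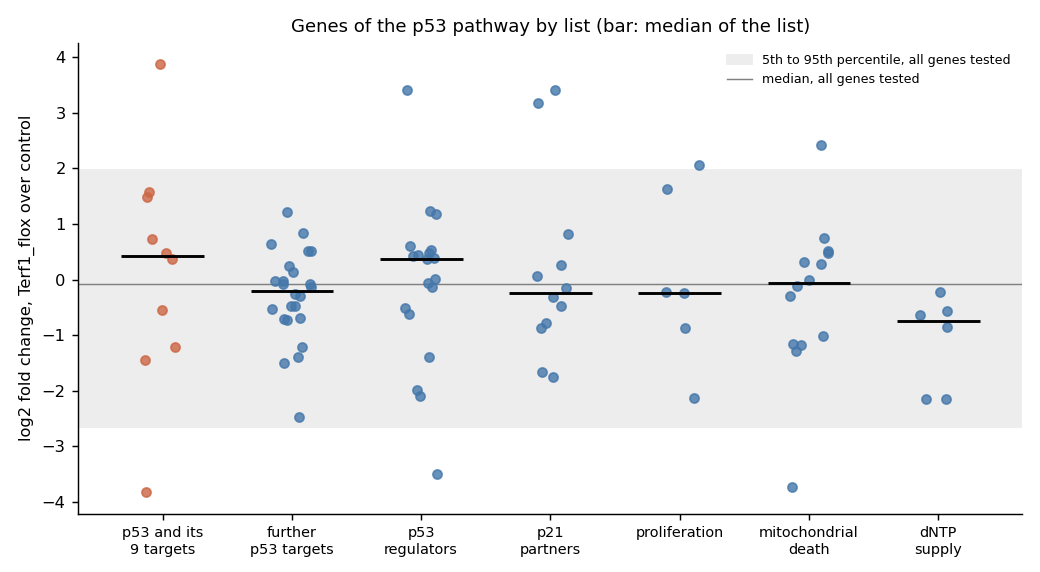
Log2 fold change, Terf1_flox over control, of each tested gene (point) by list, with the median of the list (bar), the median of all genes tested (grey line) and the 5th to 95th percentile of all genes tested (band). p53 and its 9 targets spread from −3.83 to 3.87, and the 6 partners of Rrm2b in nucleotide supply all lie below 0.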

How the data were processed

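RNA was sequenced from 6 libraries of sorted mouse kidney epithelial cells (polyadenylated RNA, low-input kit). The authors deposited normalized counts per gene, a signal in reads divided by a size factor of the library; per the submitters' processing notes DESeq2 and build GRCm39 were used, with no aligner, counting tool, strand setting or gene filter named in the sources used here. In every library 100% of the values were whole multiples of 1 step (within 0.01), so whole reads were recovered by division, and size factors recomputed from them matched the deposited scaling.

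Groups followed the sample titles. The test was limma 3.58.1 under R 4.3.3, with moderated variances that follow a mean-variance trend, on log2(normalized count + 1). It was two-sided, for genes with a mean of at least 10, and adjusted over all genes tested. The mean was taken over all 6 libraries, so a gene with a mean below 10 in 1 group passed only through the other. For such genes the direction follows from the filter. They are included in the counts and medians of the lists. The added 1 shrinks fold changes of low genes. Because log values are averaged, 1 library near 0 can instead enlarge them. Bax was at −3.83 in limma and at −2.72 in DESeq2. edgeR 4.0.16 and DESeq2 1.42.0 were run on recovered reads, and limma was checked on simulated reads. The alternatives tried were a pseudocount of 0.5 or 5, the filter dropped or raised to 50, 3 other scalings, a GC content and length correction (splines with 4 degrees of freedom, medians over GENCODE M21 coding transcripts, 97.6% of genes matched), Xist as covariate, a replicate block and each library left out. The members and lists were chosen with earlier results of these data known. All 10 members were named, and from each further list the 5 genes with the smallest p; genes outside that rule were only counted, and Mki67 was added after its values were seen. Promoter sequences and start sites are from RefSeq (GRCm38.p6), matched by symbol. Figures were drawn with matplotlib 3.10.9. Statements on depth cover counting error only.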

Additional observations from a re-analysis of the deposited data

How the results depend on the processing

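Over the 19 alternatives for each of the 10 members, 187 of 190 log2 fold changes kept their direction and stayed on the same side of the threshold. In alternatives that called 0 genes over the whole table no member passed the threshold, so there the count speaks only to direction. Apaf1 and Bax passed with DESeq2 alone, which gave 2 members called, and Zmat3, at 0.37 with all libraries, ran from −0.10 (without control replicate 3) to 0.80 (without Terf1_flox replicate 2) when each library was left out. Genes called over the whole table went from 0 to 132 with a mean of at least 50 (fewer genes tested), 45 with equal totals, 8 with quantile normalization and 772 with DESeq2; no other alternative called any, and none of them moved the number of members above 0 by over 1.5 times. Equal totals moved the median of all genes from −0.08 to −0.24, the GC content and length correction to 0.08, quantile normalization to 0.06 and equal upper quartiles to 0.04. The share of higher genes at an unadjusted p below 0.05 was 40.3%, and 25.4% with equal totals, 50.4% with equal upper quartiles and 56.1% after the GC content and length correction. Same-numbered libraries did not deviate together (r of −0.0486, 0.000129 and −0.00694), so the numbers were not taken as pairs; a fit with a replicate block called 0 genes and 0 members, with 1884 genes at an unadjusted p below 0.05 against 2095. With 2 reads of Bax in Terf1_flox library 1 and 6 of Apaf1 in control libraries 1 and 3, counting error limits how well the sizes of these changes are known.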
